A study of Mus musculus with 4 samples.

Results

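A set of 10 genes was examined whose products place glycogen-regulating proteins on the glycogen particle or build it, defined by their symbols: Ppp1r3a, Ppp1r3b, Ppp1r3c, Ppp1r3d, Ppp1r3e and Stbd1 (targeting) and Gys1, Gbe1, Gyg and Ugp2 (synthesis). Each symbol matched 1 Ensembl gene ID among the 55573 listed, and all 10 were among the 13076 genes tested. The counts come from RNA of the quadriceps, a thigh muscle, of mice 7 weeks old. There were 2 libraries of the wild type (WT), strain C57BL/6J, and 2 of genotype vdr-/- (knockout; strain B6.129S4-Vdrtm1Mbd/J), whose vitamin D receptor gene is disrupted in every cell. All mice were weaned at 21 days onto chow and water without restriction, and no agent was given. The labels do not say that libraries of a group came from separate animals, so the spread behind the p-values may be technical.

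Glycogen is the store of glucose in muscle. Glycogenin, the product of Gyg, starts the particle, glycogen synthase (Gys1) lengthens the chains from UDP-glucose, which Ugp2 makes, and the branching enzyme (Gbe1) adds the branch points. Protein phosphatase 1 activates glycogen synthase by removing phosphate, and the Ppp1r3 proteins are the regulatory subunits that hold this phosphatase on glycogen. Stbd1 is no phosphatase subunit: it carries a starch-binding domain and tethers glycogen to membranes and to the route into lysosomes.

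Total counts lay between 10.79 M and 21.34 M per library. Replicates were distinct beyond sampling noise, with a chi-square per degree of freedom of 8.04 between the WT pair and 12.5 between the knockout pair. Vdr itself was at 5 and 0 counts in the WT libraries and at 5 and 1 in the knockout libraries, too few to check the genotype. The labels give no sex, but sex-linked genes separated the groups. Xist, the X-inactivation RNA, stood at 183 and 217 CPM, or counts scaled to library size, in WT and at 0 and 0.256 in the knockout. The Y-linked genes Ddx3y, Eif2s3y, Kdm5d and Uty lay at 13.2 to 75.8 CPM in the knockout, at 1.04 to 4.74 in WT replicate 1 and at 0 to 0.0780 in WT replicate 2. Genotype, strain and this difference cannot be told apart in any result below, and none of the 10 genes lies on X or Y. Markers of skeletal muscle fibres were abundant in all libraries (11 genes, summed 65834 to 72343 CPM).

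Of the 10 genes 1 was called, Ppp1r3c, which rose 2.71-fold in the knockout. Calls are genes with an adjusted p below 0.05 in edgeR's quasi-likelihood test. By this rule 2.03% of all tested genes were called, 1.61% as higher and 0.413% as lower. An unadjusted p below 0.05 was found for 6 of the 10, 3 higher and 3 lower, where 14.0% of all tested genes had one. The CPM of the groups did not overlap for 7 of the 10, 4 higher and 3 lower in the knockout, beside 44.7% of all tested genes. Ppp1r3e is among these 7 and these 6, and it reached the expression filter through the knockout libraries alone, so its count here was partly set by that filter. The median log2 fold change of the 10 was 0.11 (0.77 for the 6 targeting genes and -0.16 for the 4 synthesis genes) beside -0.0007 over all tested genes. Without Ppp1r3e the median was 0.09, and 0.22 for the 5 targeting genes left.

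**Figure D1:**
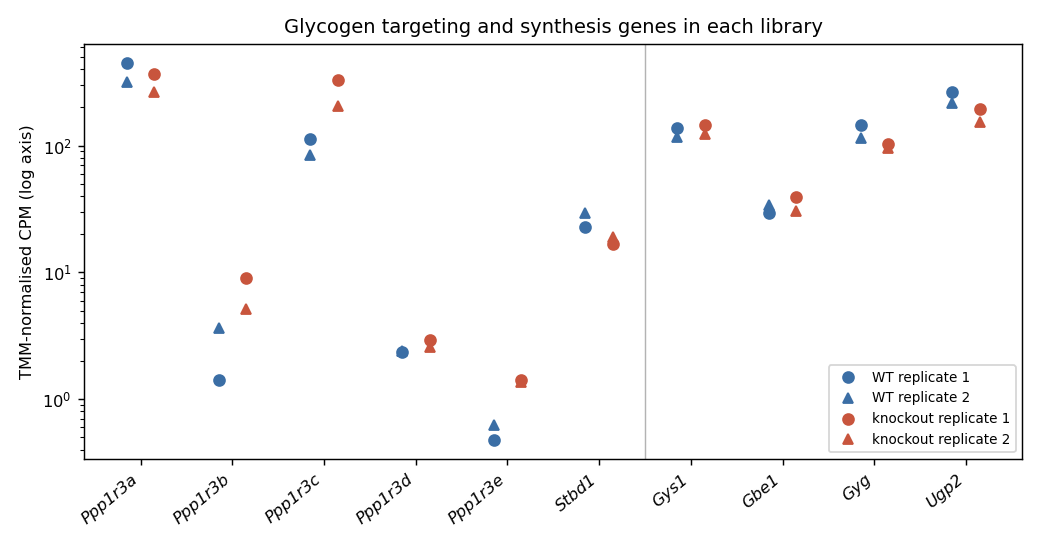
TMM-normalised CPM (log axis) of the 10 genes in the 2 WT (blue) and 2 knockout (red) libraries, circles for replicate 1 and triangles for replicate 2. The knockout points of Ppp1r3c, at 328 and 206, lie above its WT points at 113 and 84.7, while those of Gys1 and Gbe1 overlap.

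Ppp1r3c encodes the subunit known as protein targeting to glycogen, which binds the phosphatase, glycogen synthase and phosphorylase and is made in many tissues (ENSMUSG00000067279, GRCm38 chromosome 19, 36731731 to 36736653, minus strand, 2 exons). Its level was 113 and 84.7 CPM in WT replicates 1 and 2 and 328 and 206 CPM in knockout replicates 1 and 2. Both knockout libraries were higher than both WT libraries, and the lowest knockout value was 1.82 times the highest WT value. The log2 fold change was 1.44 ± 0.25 (SE; 95% interval 0.83 to 2.04; edgeR adjusted p = 0.0487), close to the threshold. The call was lost without WT replicate 2 (log2 fold change 1.24, adjusted p = 0.106), with library sizes that left out mitochondrial genes and Rn7sk (1.44, 0.0509) and without the low-count filter (1.45, 0.379). It stood in the other 8 alternatives, with an adjusted p = 0.000497 to 0.0495 and a log2 fold change from 1.06 to 1.74.

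RefSeq promoter windows of 300 bases (250 before to 50 after the start, GRCm38.p6) matched 8 of the 10 genes, and Ppp1r3b and Ppp1r3e had none. The bases upstream of both the RefSeq and the GENCODE start are shown for the called gene Ppp1r3c and, for comparison, for Ppp1r3a, the muscle subunit, and Gys1, the enzyme they act on. Capitals mark the letters CACGTG (the E-box) in Ppp1r3c and, in Ppp1r3a, the letters TATAAA on either strand (the TATA box).
Ppp1r3c, chr19:36736654-36736854, minus strand: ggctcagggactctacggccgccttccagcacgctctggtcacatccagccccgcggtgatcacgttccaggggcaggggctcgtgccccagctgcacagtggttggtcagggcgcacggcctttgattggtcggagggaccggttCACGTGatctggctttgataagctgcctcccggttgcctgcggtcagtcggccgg
Ppp1r3a, chr6:14755275-14755524, minus strand: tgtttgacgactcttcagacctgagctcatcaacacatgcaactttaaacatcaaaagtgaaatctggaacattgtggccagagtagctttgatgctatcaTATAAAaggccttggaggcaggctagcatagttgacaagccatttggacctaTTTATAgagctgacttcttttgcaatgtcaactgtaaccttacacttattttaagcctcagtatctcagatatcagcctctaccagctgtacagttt
Gys1, chr7:45434589-45434838, plus strand: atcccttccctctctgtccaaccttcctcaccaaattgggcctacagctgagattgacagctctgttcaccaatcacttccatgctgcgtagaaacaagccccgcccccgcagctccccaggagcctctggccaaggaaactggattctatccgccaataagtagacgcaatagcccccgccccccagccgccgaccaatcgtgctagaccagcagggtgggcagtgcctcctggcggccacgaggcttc
In all, 5 motifs were searched on both strands. The first was AGGTCA repeated in the same direction with 3 bases between the copies, the kind of site that dimers including the vitamin D receptor are known to bind. The next was AGGTCA alone, which the repeat contains. A variant of this half-site, AGTTCA, was the third. The others were the E-box and the TATA box as marked above. CACGTG was in the windows of Ppp1r3c (104 bases before the RefSeq start), Ppp1r3d and Gyg, so in 3 of 8 genes, and in 7.15% of all 32851 windows. TATAAA was in that of Ppp1r3a alone, on both strands, and in 13.6% of all windows. AGTTCA was in that of Gbe1 alone (14.0% of all windows), and AGGTCA in none of the 8 (16.3%). Only the exact repeat was searched, and it was in 2 of the 32851 windows and in none of the 8 genes. At so low a share its absence from the 8 says little. These are matches of letters in a short window, not binding sites.

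Ppp1r3a encodes the subunit typical of striated muscle, which also anchors glycogen to the sarcoplasmic reticulum (ENSMUSG00000042717, chromosome 6, 14713977 to 14755274, 4 exons). It stood at 449 and 319 CPM in WT against 365 and 264 CPM in the knockout. The groups overlapped, and the libraries of a group differed by 1.41 times in WT and 1.38 times in the knockout. Its log2 fold change was -0.29 ± 0.20 (95% interval -0.74 to 0.17, edgeR adjusted p = 0.592), so a fall to 0.60-fold and a rise to 1.12-fold both lie within the interval.

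Ppp1r3b, the subunit best known from liver (chromosome 8, 35375739 to 35388139, 3 exons), was scarce. It had 15 and 47 counts in WT against 189 and 60 in the knockout, which stand for 1.42 and 3.67 against 8.98 and 5.12 CPM. Both knockout libraries were above both WT libraries, but WT replicate 1 had 0.388 times the level of replicate 2. The nearest libraries of the groups were closer, the lowest knockout value being 1.40 times the highest WT value. Ppp1r3b had a fitted fold change of 2.76 between the groups. Its log2 fold change, 1.46 ± 0.43, was about as large as that of Ppp1r3c but did not pass the test (edgeR adjusted p = 0.185). With 1 library left out in turn its log2 fold change ran from 0.96 (adjusted p = 0.468 without knockout replicate 1) to 2.34 (adjusted p = 0.00923 without WT replicate 2). In that last fit, which calls Ppp1r3b and not Ppp1r3c, WT is 1 library, assumed to vary like the knockout pair, and the difference between the WT libraries no longer enters. Markers of liver cells were near 0: the 4 listed genes summed to 0.858 to 2.18 CPM, and albumin, Alb, stood at 1.90 and 0.858 CPM in WT against 0.951 and 1.53 CPM in the knockout.

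Ppp1r3e, a subunit less studied than the others (chromosome 14, 54872669 to 54877550), was lower still. Its counts were 5 and 8 in WT and 30 and 16 in the knockout, or 0.474 and 0.624 against 1.43 and 1.36 CPM. The knockout libraries were above the WT libraries and close to each other, at counts where sampling noise is large. Its log2 fold change was 1.32 ± 0.47 (edgeR adjusted p = 0.233). Ppp1r3d (chromosome 2, 178411206 to 178414472), which lies in 1 exon, had 2.37 and 2.42 CPM in WT against 2.95 and 2.56 CPM in the knockout. These groups did not overlap either, but the difference was small (0.22 ± 0.29, adjusted p = 0.821).

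Stbd1 (chromosome 5, 92603041 to 92606579, 2 exons) ran the other way. It stood at 22.7 and 29.4 CPM in WT against 16.7 and 19.2 CPM in the knockout. Both knockout libraries were below both WT libraries. Its log2 fold change of -0.55 ± 0.16 (95% interval -0.91 to -0.19) did not pass after adjustment (edgeR adjusted p = 0.143), nor in any of the 11 alternatives (adjusted p from 0.0636 to 0.536).

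**Figure D2:**
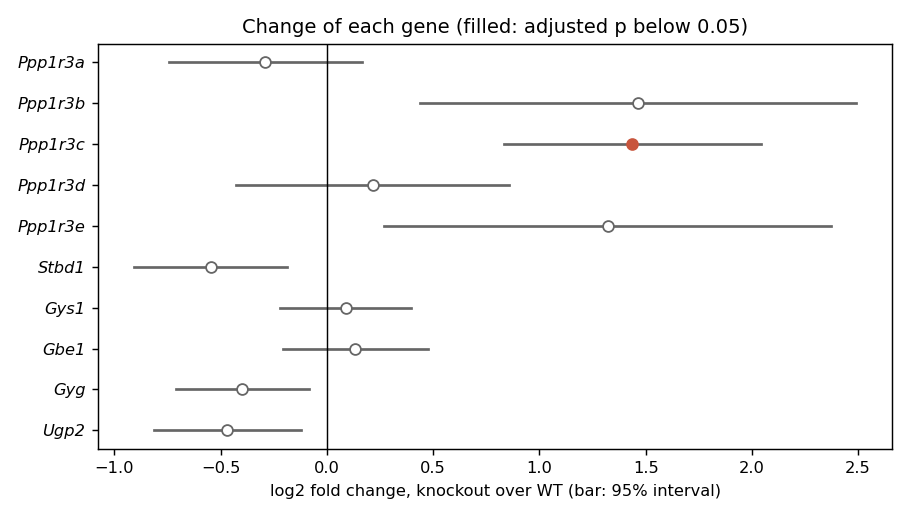
Log2 fold change of knockout over WT for each of the 10 genes, with the unadjusted 95% interval of the edgeR fit as a bar and the called gene filled. Ppp1r3c is the 1 filled point, at 1.44, and the intervals of Ppp1r3b and Ppp1r3e are the widest.

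The make-up of the targeting transcripts differed between the groups. Per kilobase of exon, Ppp1r3c was 35.4% and 33.9% of the summed counts of the 6 targeting genes in the WT libraries and 65.8% and 60.8% in the knockout libraries. Ppp1r3a made up 54.9% and 49.97% in WT and 28.6% and 30.5% in the knockout. Stbd1 was 8.72% and 14.4% in WT and 4.10% and 6.95% in the knockout. Ppp1r3b, Ppp1r3d and Ppp1r3e each stayed below 1% in every library. The share of Ppp1r3c was thus 34.6% ± 1.06 (SD, n = 2) in WT and 63.3% ± 3.48 (n = 2) in the knockout, a difference of 28.7 percentage points.

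**Figure D3:**
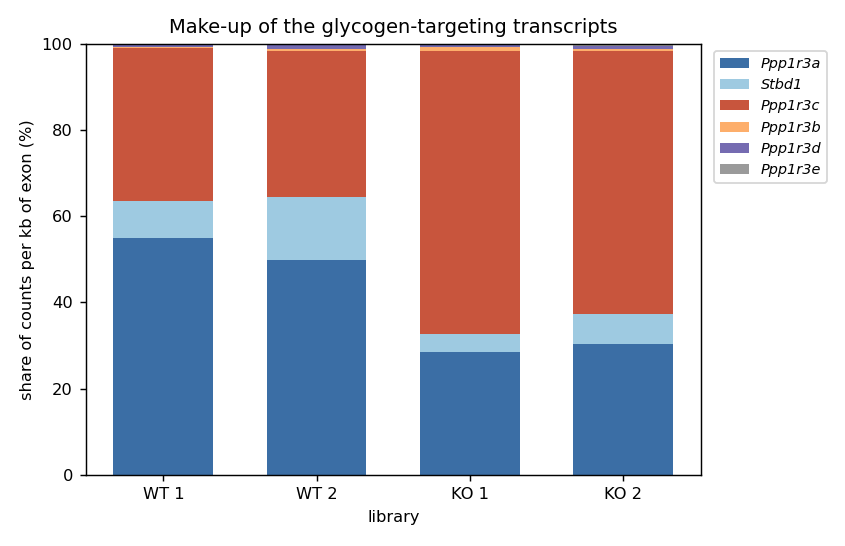
Share (%) of each of the 6 targeting genes in their summed counts per kilobase of exon, as stacked bars, in each library. Ppp1r3c is the largest part in both knockout libraries (65.8% and 60.8%) and Ppp1r3a in both WT libraries (54.9% and 49.97%).

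The ratio of Ppp1r3c to Ppp1r3a within a library does not depend on how libraries are scaled. Per kilobase it was 0.644 and 0.678 in WT and 2.30 and 2.00 in the knockout, so Ppp1r3a was the more abundant of the pair in both WT libraries and the less abundant in both knockout libraries. This order rests on the length correction, since without it Ppp1r3a remained the higher of the pair in both knockout libraries (50.4% and 53.0% of the summed targeting counts against 45.4% and 41.4%). An exact two-sided permutation test of 2 against 2 libraries cannot give a p below 0.333, and none is given. The summed level of the 6 targeting genes was 117 and 91.7 CPM per kilobase in WT and 183 and 124 in the knockout, and without Ppp1r3c it was 75.9 and 60.7 against 62.8 and 48.7, where the groups overlapped.

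None of the 4 synthesis genes was called, where 2.03% of all tested genes were, so the absence of a call among 4 says little. Gys1, muscle glycogen synthase (chromosome 7, 45434844 to 45456619, 16 exons), stood at 137 and 116 CPM in WT against 145 and 123 CPM in the knockout. The groups overlapped, and the interval of its fold change ran from 0.86 to 1.32 (log2 0.09 ± 0.14, edgeR adjusted p = 0.850). Gbe1, the branching enzyme (chromosome 16, 70313949 to 70569716, 14 exons), had 29.7 and 34.0 CPM in WT against 39.2 and 30.4 CPM in the knockout. These groups overlapped too, with a fold change between 0.87 and 1.39 (log2 0.13 ± 0.15, adjusted p = 0.779). The sign of both depends on single libraries: Gys1 was at -0.03 without WT replicate 2 and -0.04 without knockout replicate 1, and Gbe1 at -0.07 without knockout replicate 1.

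Gyg and Ugp2, which act before the synthase, had lower values in the knockout without passing the test. Gyg, glycogenin (chromosome 3, 20122084 to 20155317, 7 exons), stood at 146 and 116 CPM in WT against 103 and 95.7 CPM in the knockout. Its log2 fold change was -0.40 ± 0.14 (95% interval -0.71 to -0.08, edgeR adjusted p = 0.226). Ugp2, which makes UDP-glucose (chromosome 11, 21321138 to 21371201, 10 exons), stood at 264 and 216 CPM in WT against 194 and 152 CPM in the knockout (-0.47 ± 0.16, interval -0.82 to -0.12, adjusted p = 0.192). In neither gene did the groups overlap. Relative to Gys1 in the same library and per kilobase, Ugp2 was 3.01 and 2.91 in WT and 2.08 and 1.93 in the knockout, and Gyg 2.18 and 2.04 against 1.45 and 1.59. Gbe1 relative to Gys1 was 0.194 and 0.263 in WT and 0.242 and 0.221 in the knockout, with overlap. Exons of Gys1 and Ugp2 are crossed on the opposite strand by Ruvbl2 (6.47% of Gys1 exon bases) and Gm12043 (2.54% of those of Ugp2). Among 495 genes covered entirely by exons on the other strand in GENCODE M21, 124 had counts. The annotation behind the counts is not given, so this cannot settle whether the counting used strand.

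The order of the levels, as CPM per kilobase of exon, differed at the top, and the scarce Ppp1r3b and Ppp1r3d also changed places. In WT it ran from Ugp2 (78.2 ± 10.9, SD, n = 2) through Gyg (55.9 ± 9.31), Ppp1r3a (55.2 ± 13.2), Ppp1r3c (36.3 ± 7.39), Gys1 (26.4 ± 3.10), Stbd1 (11.7 ± 2.12) and Gbe1 (5.95 ± 0.576) to Ppp1r3d (0.733 ± 0.0108), Ppp1r3b (0.409 ± 0.256) and Ppp1r3e (0.219 ± 0.0424). The libraries of the neighbours Gyg and Ppp1r3a overlapped, as did those of Ppp1r3b and Ppp1r3e, and those of the other neighbours did not. In the knockout Ppp1r3c came first (98.0 ± 31.8), before Ugp2 (56.4 ± 9.59), Ppp1r3a (45.1 ± 10.2), Gyg (42.4 ± 2.18) and Gys1 (28.0 ± 3.26). Stbd1 (8.07 ± 0.796), Gbe1 (6.51 ± 1.16), Ppp1r3b (1.13 ± 0.440), Ppp1r3d (0.843 ± 0.0842) and Ppp1r3e (0.556 ± 0.0174) followed. Ppp1r3c was first in each knockout library, at 120.5 and 75.6, and behind Ugp2, Ppp1r3a and Gyg in each WT library, at 41.5 and 31.1. In the knockout the libraries of Ugp2 and Ppp1r3a overlapped, as did those of Ppp1r3a and Gyg and of Ppp1r3b and Ppp1r3d. The first place of Ppp1r3c in the knockout rests on the length correction. In CPM alone Ppp1r3a was above Ppp1r3c in both knockout libraries, at 365 and 264 against 328 and 206.

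Fat-cell markers were higher in the same libraries as Ppp1r3c. Of 12 such markers 8 were called higher and none lower, beside 1.61% and 0.413% of all tested genes. The summed level of the 12 was 1029 and 1266 CPM in WT against 4404 and 3850 CPM in the knockout. The adipocyte hormone gene Adipoq stood at 70.2 and 88.4 against 300.9 and 299.6 CPM. Within WT the order was opposite, since replicate 1 had 1.34 times the Ppp1r3c of replicate 2 but 0.813 times the summed fat-cell markers. Within the knockout, replicate 1 had 1.59 times the Ppp1r3c of replicate 2 and 1.14 times the summed fat-cell markers. That sum leans on Cfd, the most abundant of the 12 (knockout mean 1874 CPM, SD 378, n = 2). Counted singly, 8 of the 12 markers were higher in knockout replicate 1 than in replicate 2, and 1 of the 12 in WT replicate 1. Ppp1r3b, at low counts, was also higher in both knockout libraries, and within each group its order was that of the fat-cell sum. Replicate 1 had 0.388 times the Ppp1r3b of replicate 2 in WT and 1.76 times in the knockout. The part of fat cells in the Ppp1r3c and Ppp1r3b readings was not tested. In whole muscle more cells of a type and more RNA per cell cannot be told apart. The 6 slow fibre markers summed to 39.2 and 64.2 CPM in WT against 112 and 30.3 CPM in the knockout, where the groups overlapped. They were thus 3.69 times higher in knockout replicate 1 than in replicate 2, the libraries with the highest and the next highest Ppp1r3c, and none of the 6 was called.

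**Figure D4:**
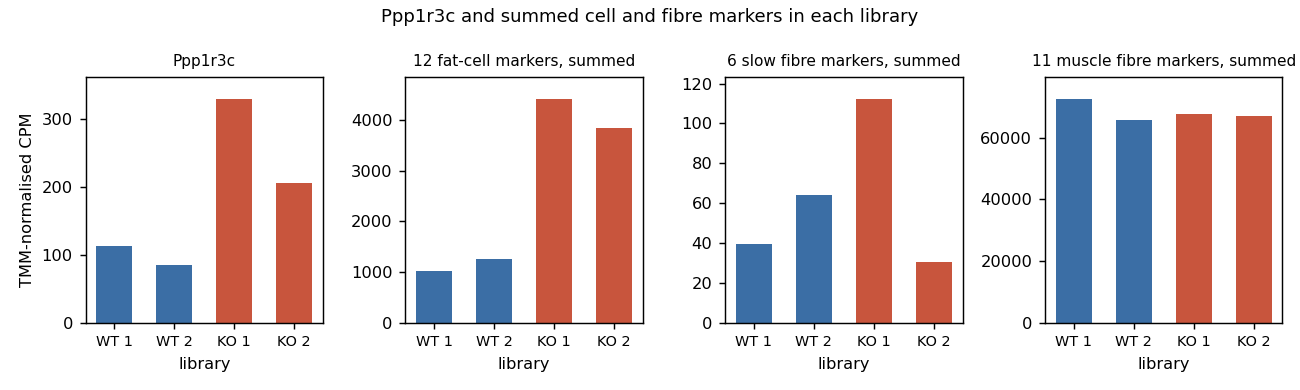
Levels of Ppp1r3c and of summed marker lists in each library, as TMM-normalised CPM, WT in blue and knockout in red, each panel with its own axis from 0. Ppp1r3c and the 12 fat-cell markers are higher in both knockout libraries, the 6 slow fibre markers only in knockout replicate 1, and the 11 muscle fibre markers lie between 65834 and 72343 in all.

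Other genes of the pathway, 27 on 3 lists, gave 1 call among the 25 tested, with none higher and 1 lower. Of all tested genes 2.03% were called, 0.413% as lower. The 25 had 8 positive and 17 negative log2 fold changes and a median of -0.08, where 49.91% of all tested genes had a positive one. The called gene was Phka1, the X-linked regulatory subunit of phosphorylase kinase, which starts glycogen breakdown. It stood at 421 and 342 CPM in WT against 244 and 233 CPM in the knockout (-0.68 ± 0.14, edgeR adjusted p = 0.0358). It was not called when WT replicate 1 (-0.52) or either knockout library (-0.72 without replicate 1, -0.65 without replicate 2) was left out, or with library totals in place of TMM (-0.63, adjusted p = 0.0545). Pygb, the brain form of glycogen phosphorylase, came next, at 17.3 and 17.6 against 24.6 and 34.0 CPM (0.74 ± 0.17, adjusted p = 0.0597). It was called higher in 4 of the 11 alternatives: without the low-count filter (adjusted p = 0.00655), with the replicate block (0.0465), by the older edgeR method (0.0436) and without knockout replicate 1 (0.0146). Pygl, the liver form, named here after its values were seen, stood at 11.1 and 21.0 against 28.5 and 29.8 CPM (0.85, adjusted p = 0.234). It was called higher with the replicate block (0.92, adjusted p = 0.0490) and without WT replicate 2 (1.39, adjusted p = 0.000284). Pgm2l1, which makes glucose bisphosphate, stood at 22.9 and 21.3 against 16.4 and 13.6 CPM (-0.56 ± 0.15, adjusted p = 0.108).

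By list, none of the 10 tested genes of phosphatase and synthase control was called (median -0.12), which include the catalytic subunits of protein phosphatase 1 and the kinase genes Gsk3a and Gsk3b that inhibit the synthase. None of the 7 genes of glucose supply was called (median -0.04), and 1 of the 8 of glycogen breakdown was (median -0.14). These counts stand beside 2.03% called among all tested genes. The other targeting subunit genes were too low to test: Ppp1r3f was at 8 and 8 counts in the WT libraries and at 12 and 7 in the knockout libraries, and Ppp1r3g at 0 and 1 and at 0 and 0. Gys2, the liver synthase, had 0.948 and 1.95 CPM in WT against 2.90 and 2.30 CPM in the knockout (0.83 ± 0.38, adjusted p = 0.371). Leaving out WT replicate 1 gave a log2 fold change of 0.44, and leaving out WT replicate 2 one of 1.47.

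**Figure D5:**
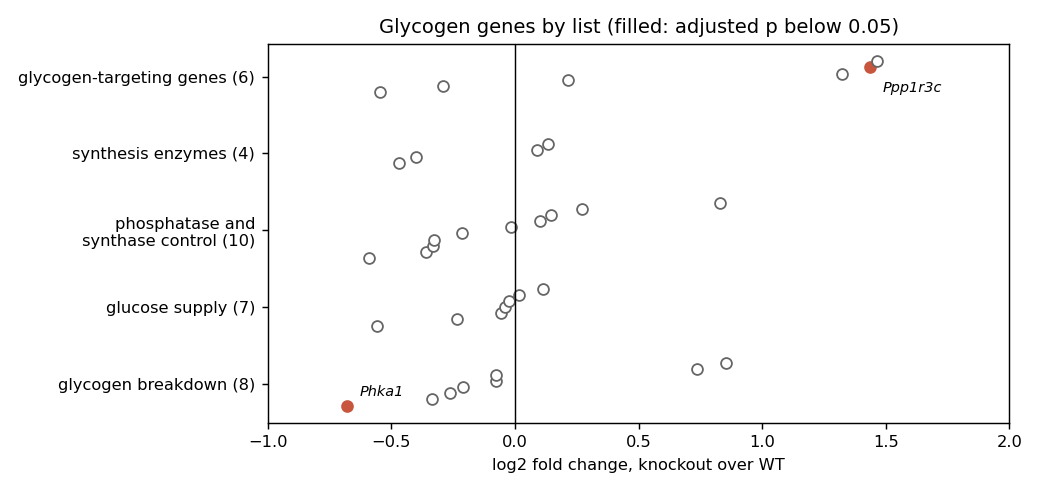
Log2 fold change of knockout over WT for the 35 tested glycogen genes, 1 point a gene, by list, with called genes filled and named. Ppp1r3c at 1.44 and Phka1 at -0.68 are the called genes, and most points of the other lists lie near 0.

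The 5 genes most like Ppp1r3c over the 4 libraries, of 6288 with a mean of at least 10 CPM, were found by the Euclidean distance between centred log2 CPM. They were Aldh1l1, a folate enzyme (distance 0.157), the metallothionein gene Mt1 (0.231), Acss3, an acyl-CoA synthetase (0.249), Mt2 (0.279) and Gpx3, the secreted glutathione peroxidase (0.289). Aldh1l1 stood at 13.3 and 10.5 CPM in WT against 44.3 and 27.6 CPM in the knockout. With 4 libraries such likeness rests on the group difference and on the order within each group, knockout replicate 1 being highest in all 5.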

How the data were processed

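Gene-level RNA-seq was analysed from 4 libraries, 2 WT and 2 knockout. The deposited values are unnormalised read counts, 1 whole number for each Ensembl ID. The submitters' processing notes name build GRCm38 (mm10) with the tools STAR, Trimmomatic and DESeq2. Versions, parameters and annotation: not given in the sources used here. Symbols, coordinates and exon lengths came from GENCODE M21 (55480 of 55573 IDs matched). Genes were filtered with filterByExpr (minimum count 10, minimum total 15), scaled by TMM and tested with edgeR 4.0.16 in R 4.3.3 (quasi-likelihood F test, robust, the edgeR 4 method, genotype as the only term) over 13076 genes with Benjamini-Hochberg adjustment. The fit was tested on simulated data. Standard errors come from the F statistic (median 0.147 at a mean of 10 CPM or more), and intervals from the t distribution with the fit's degrees of freedom. Levels between genes are compared per kilobase of the union of exons. Named by rule are the 10 genes, called pathway genes with the 3 of smallest p, and the 5 genes most like the member with the smallest p. From the pathway lists, Pygl, Gys2, Gsk3a, Gsk3b, Ppp1r3f and Ppp1r3g were also named, outside this rule. Pygl and Gys2 had positive log2 fold changes, while 17 of the 25 tested pathway genes had negative ones. DESeq2 1.42.0, other scalings, no filter, the replicate block and leaving out each library were alternatives, and the older edgeR method was added after the data were seen. The members, lists and tests were chosen with earlier results of these data known.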

Additional observations from a re-analysis of the deposited data

How the results depend on the processing

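Of the 11 alternatives run for each of the 10 genes, the log2 fold change kept its sign in all for 8 genes. It reversed for Gys1 without WT replicate 2 (-0.030) and without knockout replicate 1 (-0.041), with a range of -0.041 to 0.22 when 1 library was left out, and for Gbe1 without knockout replicate 1 (-0.070; range -0.070 to 0.30). The count of called members was 0, not 1, without the low-count filter and with library sizes that left out mitochondrial genes and Rn7sk, and 1 without each library in turn, which was Ppp1r3b without WT replicate 2 and Ppp1r3c otherwise. DESeq2 gave no adjusted p for Ppp1r3e. Over all genes, 476 of 26657 tested were called without the low-count filter and 265 of 13076 with it. The pathway lists gave 0 calls with library totals in place of TMM, 2 without the filter, 2 by the older edgeR method and 0 to 2 when 1 library was left out. With the replicate block they gave 3 calls, the 10 members 1 and all genes 346. Same-numbered libraries hardly deviated together (Pearson r = 0.051 over 6289 genes), so the numbers were not taken to pair them. Among the members, Ppp1r3a, Ppp1r3c, Gys1, Gyg and Ugp2 were higher in replicate 1 of both groups and Stbd1 lower in both. The order of the remaining members differed between the groups. The smallest adjusted p of Ppp1r3c came from the block (edgeR, 0.000497, log2 fold change 1.41 ± 0.13). With the longest transcript as length, the knockout shares of Ppp1r3b and Ppp1r3e were 1.02% and 0.474%. Without length correction the WT and knockout shares were 74.4% and 51.7% for Ppp1r3a, 19.2% and 43.4% for Ppp1r3c, 0.476% and 0.461% for Ppp1r3d, 0.111% and 0.236% for Ppp1r3e and 5.27% and 3.08% for Stbd1, and 1.14% for Ppp1r3b in the knockout. The cause of these shifts was not tested. Low counts limit Ppp1r3b, Ppp1r3d and Ppp1r3e.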
